A study of Mus musculus with 10 samples.

Results

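Small structural noncoding RNAs are transcripts that do their work as RNA, folded and bound by proteins, rather than as messengers. In the posterior wall of the mouse eye, 56 of the 26360 listed genes were taken as such. They were chosen by annotation and level: rows of biotype snoRNA, scaRNA, snRNA, misc_RNA or ribozyme with a mean of at least 1 CPM (reads scaled to a fixed library total) over the 10 libraries, and Rn7s1, Rn7s2 and Rn7sk. Of the 212 listed rows of these biotypes, 24 of 50 snRNA, 19 of 62 snoRNA, 5 of 13 scaRNA, 7 of 84 misc_RNA and 1 of 3 ribozyme rows were members. Of the 56, 22 carry a gene name and 34 are predicted loci named by number (Gm).

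The libraries came from wild-type C57BL/6J mice at postnatal day 34, 1 from the left and 1 from the right eye of each of 5 animals (numbered 61, 64, 65, 66 and 68). The tissue was labelled RPE (retinal pigment epithelium), choroid and sclera, although the extraction protocol names retinae. A goggle with a -20 D lens was put over 1 eye of each animal on postnatal day 24, under ketamine and xylazine, and worn for 10 days. This treatment makes young eyes myopic. The fellow eye had no lens, and the labels used here do not say which side was treated. The groups compared are therefore left eyes (n = 5) and right eyes (n = 5), and their difference has no treatment meaning. Libraries were made from total RNA, after ribosomal RNA depletion, with a stranded kit.

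Each class of these RNAs has a known machinery. The small nuclear RNAs U1 and U2 read the splice site and the branch point of pre-mRNA; 7SL RNA is the scaffold of the signal recognition particle, which brings nascent secreted proteins to the endoplasmic reticulum; 7SK RNA holds the elongation factor P-TEFb inactive. Small nucleolar RNAs (snoRNAs) of the box C/D and box H/ACA kinds guide methylation and pseudouridylation of ribosomal RNA or take part in its cleavage, and small Cajal body RNAs (scaRNAs) do the same for small nuclear RNAs. RNase P RNA cuts the leader from transfer RNA precursors, Y RNAs bind the Ro60 protein, and vault RNAs are part of the vault particle. In secretory tissue such as sclera, with its collagen, the signal recognition particle serves every exported matrix protein.

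The genes of U1 carry the clearest difference in level per row between near-identical sequences, so a copy of each kind is shown first. Sequences here are from the GENCODE M21 transcripts on GRCm38, written in DNA letters from the 5′ end, with positions counted from 1 there. In the U1 sequences capitals mark the position at which Rnu1a1 and Gm22513 differ, and in Rnu1b6 the substitutions against Rnu1a1. The bases of Rnu1b6 at gap positions of that alignment are not marked. Rnu1a1 lies at chr11:87422867-87423030 (plus strand, within Tex14), Gm22513 at chr12:54696782-54696945 (plus strand, in no other listed gene of that strand) and Rnu1b6 at chr3:96460024-96460189 (minus strand).
Rnu1a1: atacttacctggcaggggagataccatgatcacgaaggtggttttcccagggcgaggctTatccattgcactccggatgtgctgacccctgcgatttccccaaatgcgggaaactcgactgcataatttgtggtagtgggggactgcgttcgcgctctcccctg
Gm22513: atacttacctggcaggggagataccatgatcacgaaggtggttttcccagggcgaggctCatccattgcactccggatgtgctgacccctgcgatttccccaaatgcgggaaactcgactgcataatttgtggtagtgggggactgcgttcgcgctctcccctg
Rnu1b6: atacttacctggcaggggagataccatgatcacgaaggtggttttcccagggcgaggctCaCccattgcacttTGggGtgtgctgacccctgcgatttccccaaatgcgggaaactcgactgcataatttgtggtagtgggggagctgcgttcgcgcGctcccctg

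Gm22513 differs from Rnu1a1 by a single substitution, T60C. The same T60C is the first of 6 substitutions by which Rnu1b6, a gene of the U1b kind, differs from Rnu1a1, and their alignment has 2 gap positions besides. The other 5 are T62C, C73T, C74G, A77G and T156G. Rnu1a1 shares its whole 164-base sequence with 6 other members, Gm23804, Gm22068, Gm22317, Gm22634, Gm25679 and Gm26444. Rnu1b6 shares its own with Gm24830 and Gm26232.

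The U2 genes are shown for the same reason, with the branch point recognition letters in capitals in Rnu2-10 (chr11:101658238-101658428, plus strand) and the substitutions in capitals in Gm24497 (chr1:72244213-72244403, plus strand). Rnu2-10 has the same sequence as Gm24950, Gm23971 and Gm23849. Gm24497 carries G109C and C186A against it. Gm23472 and Gm23444 carry G109C alone, and Gm25939 carries T69C, C78T and G109C.
Rnu2-10: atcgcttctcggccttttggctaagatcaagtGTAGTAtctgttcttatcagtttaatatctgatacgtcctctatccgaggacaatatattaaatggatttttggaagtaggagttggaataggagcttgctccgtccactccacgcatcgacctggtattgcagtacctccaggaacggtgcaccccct
Gm24497: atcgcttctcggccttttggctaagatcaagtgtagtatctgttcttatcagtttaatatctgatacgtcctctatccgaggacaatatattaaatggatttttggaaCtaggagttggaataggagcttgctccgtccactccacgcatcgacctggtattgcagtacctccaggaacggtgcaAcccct

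The most abundant members are 7SL and 7SK RNA. Rn7s1 and Rn7s2 have the same sequence, so that a read cannot be told to come from the former or the latter. Of Rn7sk (chr9:78175303-78175633, minus strand) the first 110 of 331 bases are shown, with each GATC in capitals. The 5′ hairpin, which binds HEXIM proteins, lies in this stretch, and not every GATC marked is a binding site.
Rn7sk: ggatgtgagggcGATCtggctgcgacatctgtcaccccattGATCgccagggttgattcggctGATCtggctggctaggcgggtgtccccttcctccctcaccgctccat

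A snoRNA of each kind is shown for its boxes. Snora73a (chr4:132352775-132352979, minus strand), the box H/ACA RNA also called U17, has its ACA box in capitals. Snord17 (chr2:144265979-144266216, minus strand, within Snx5), a box C/D RNA, has box C (TGATGA) and the last box D (CTGA) in capitals. Scarna10, of biotype snoRNA, was grouped with the scaRNAs by its symbol. Of the 14 snoRNA rows other than U3 and Scarna10, 11 had ACA within the last 8 bases, 2 held TGATGA and 8 held CTGA. All 4 U3 rows held both TGATGA and CTGA.
Snora73a: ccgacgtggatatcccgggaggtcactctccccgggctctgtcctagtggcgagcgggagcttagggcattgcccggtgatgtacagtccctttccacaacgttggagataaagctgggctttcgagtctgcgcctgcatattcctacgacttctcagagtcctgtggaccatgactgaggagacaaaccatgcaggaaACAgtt
Snord17: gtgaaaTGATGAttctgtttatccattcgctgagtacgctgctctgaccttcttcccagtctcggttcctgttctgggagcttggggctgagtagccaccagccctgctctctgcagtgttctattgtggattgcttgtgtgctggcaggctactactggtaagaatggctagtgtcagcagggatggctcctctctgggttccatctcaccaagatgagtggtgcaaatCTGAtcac

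Short genes stood outside the listed rows. The members ran from 112 to 414 bases, with a median of 191, and the shortest listed gene of any kind had 102 bases. GENCODE M21 has 715 genes of the 5 biotypes under 100 bases, and 0 of them were listed. Of its 98 Snord genes 87 are under 100 bases. In the file 5 Snord genes were listed, of which Snord17 was a member, against 11 Snora genes with 3 members and 5 Scarna genes with 4 members. Of the 23 genes with snoRNA symbols of the imprinted clusters 0 were listed, and copies under other names were not sought. Longer genes were also absent: GENCODE M21 has 2810 genes of these biotypes at 100 bases or more, and 212 rows were listed. Of its 42 Snora genes 0 are under 100 bases, and 11 were listed. What is described here is therefore only a part of the longer genes of these families.

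The rule's threshold cut through a continuous range of levels. Just inside it stood Gm24265 (mean 1.05 CPM), Gm24119 (1.09 CPM) and Gm26448 (1.10 CPM), and just outside Gm24407 (0.925 CPM), Gm25117 (0.896 CPM) and Gm26083 (0.863 CPM). Rny3, another Y RNA, had 0.616 CPM, and the minor spliceosome RNAs Rnu12 and Rnu11 had 0.281 and 0.101 CPM. Rmrp, the RNA of the related enzyme RNase MRP, is annotated as both lncRNA and ribozyme and was thus no member, with a mean of 907 CPM and values of 595 (right eye of animal 61) to 1131 (left eye of animal 66).

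A few RNAs held nearly all of the signal. The members together took 4.36% to 6.11% of each library and 10.2% to 13.7% of the CPM of the listed genes. Per kilobase of gene, Rn7s1 and Rn7s2 each stood at 55318 CPM, Rn7sk at 48074 and Rpph1, the RNase P RNA, at 10220. Of the others, Gm22513 stood at 367, the scaRNAs Scarna10 and Gm22009 at 248 and 236, Rny1 at 11.4 and Vaultrc5 at 7.84 CPM per kilobase. Rnu1a1, 1 of 7 identical genes, stood at 35.2, and Rnu2-10, 1 of 4, at 17.8. These values of single copies may not be the level of the whole RNA. The plot of members by library, which is in CPM per gene, shows the 4 abundant RNAs far from the rest.

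**Figure D1:**
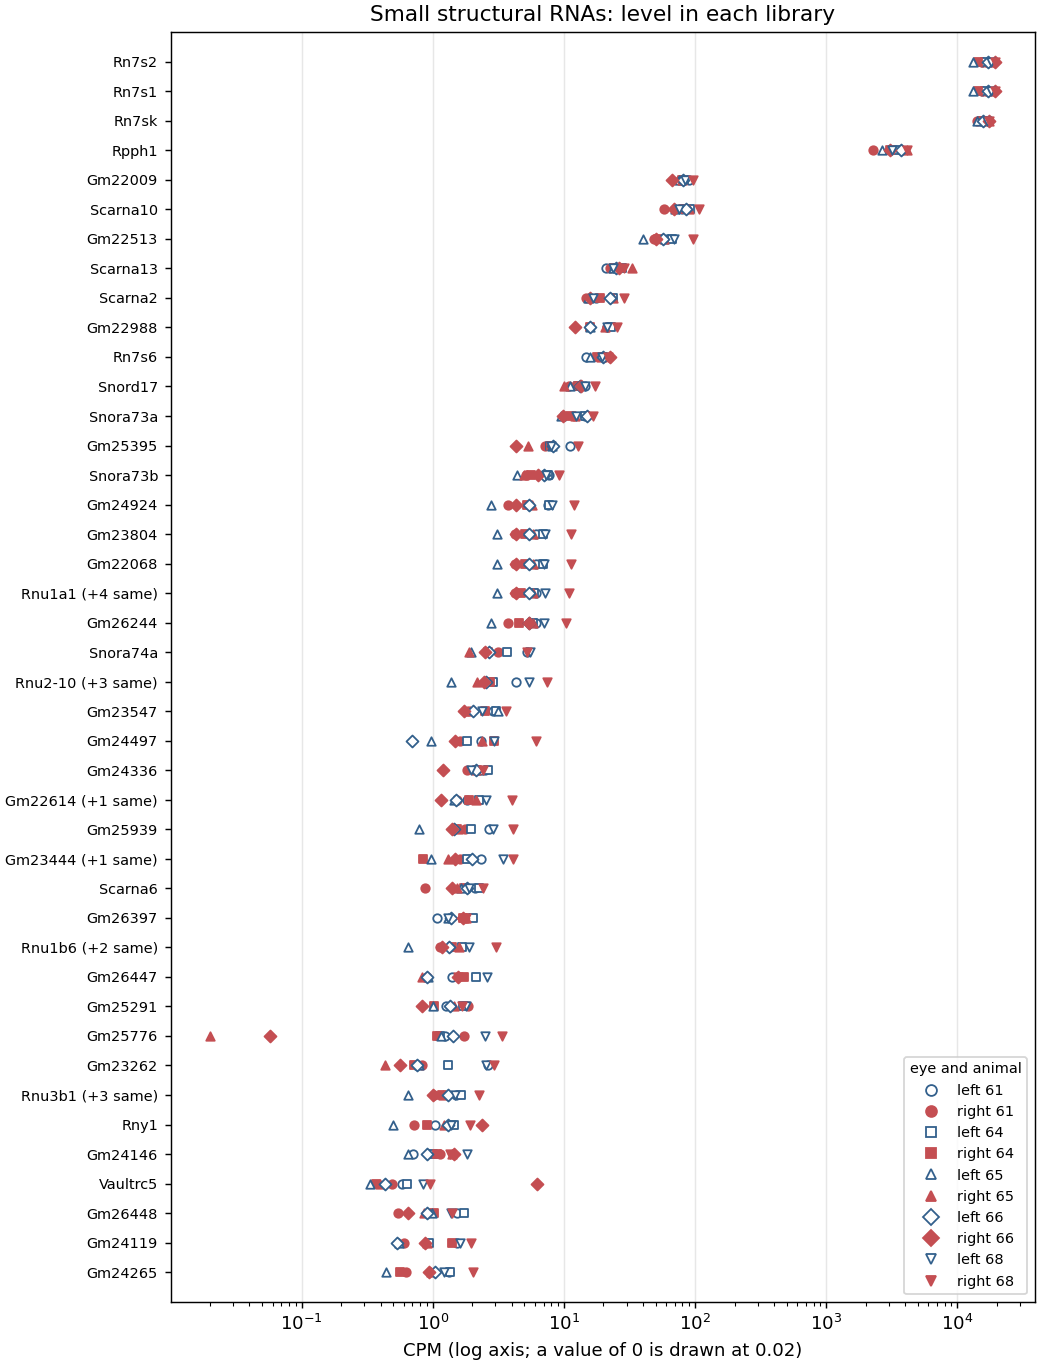
CPM of each member in each of the 10 libraries on a log axis, ordered by mean; members with equal values in all libraries share a row (42 rows for 56 members), open symbols are left eyes and filled symbols right eyes. The right eye of animal 68 (filled downward triangle) lies at the right end of most rows and the left eye of animal 65 (open upward triangle) at the left end of many.

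7SL RNA varied by 1.47-fold from the lowest to the highest library. Rn7s1 had 15423, 16238, 13212, 17110 and 18042 CPM in the left eyes of animals 61, 64, 65, 66 and 68, and 15517, 14361, 17385, 19204 and 19462 CPM in their right eyes. Rn7s2 followed it to within 0.1 CPM. The groups overlapped, with 16005 ± 1842 CPM on the left and 17186 ± 2240 CPM on the right (SD, n = 5 each). Rn7s6, a diverged 7SL gene, had only 18 ± 2.52 and 20.3 ± 1.77 CPM.

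7SK RNA was the steadiest member. Rn7sk had 15065, 15320, 14190, 15622 and 16832 CPM on the left and 14224, 15638, 17489, 17388 and 17357 CPM on the right, in the order of animals above. Its SD on the log2 scale over the 10 libraries was 0.12, the smallest of the 56. Rn7s1 and Rn7s2 together stood at 1.84 to 2.24 times Rn7sk across the libraries. Gm24146, a 7SK-like locus, had a mean of 1.15 CPM.

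RNase P RNA moved more than 7SK. Rpph1 (chr14:50807449-50807767, minus strand) had 3055, 3468, 2653, 3694 and 3153 CPM on the left and 2256, 3037, 4110, 3059 and 4119 CPM on the right. It was lowest in the right eye of animal 61 and highest in the right eyes of animals 65 and 68, a 1.83-fold range. It amounted to 15.9% to 23.7% of Rn7sk in the same library.

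Among the U1 rows, Gm22513 stood far above each single copy that differs from it at 1 position. Gm22513 had 60.9, 67.2, 39.8, 57.1 and 69.6 CPM on the left and 49.0, 52.4, 58.0, 50.8 and 96.9 CPM on the right. Rnu1a1 had 6.16, 5.95, 3.09, 5.38 and 7.18 CPM on the left and 4.23, 4.67, 5.80, 4.32 and 10.9 CPM on the right. Gm22513 was thus 8.88 to 12.9 times Rnu1a1 in every library, at the same length, and held 49.3% to 59.4% of the sum over the 10 U1a genes. It has a sequence of its own, while Rnu1a1 is 1 of 7 identical genes. The 6 genes with the sequence of Rnu1a1 had means of 5.77 to 5.95 CPM, and 4 of them had its exact value in every library. The sources used here do not say how reads that match several copies were counted. A level of a single copy thus cannot be told apart from the level of the copies together. The ratio of Gm22513 to Rnu1a1 therefore compares rows, not sequences.

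U1b genes made up a small, steady part of U1. Rnu1b6 had 1.35, 1.67, 0.653, 1.34 and 1.90 CPM on the left and 1.13, 1.4, 1.59, 1.18 and 3.01 CPM on the right. The 5 U1b members summed to 6.04% to 8.03% of all U1 in each library. They were lowest in the left eye of animal 65 and highest in the right eye of animal 68, as U1a was.

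U2 varied most among the spliceosomal classes. Rnu2-10 had 4.33, 2.86, 1.38, 2.54 and 5.46 CPM on the left and 2.54, 2.75, 2.18, 2.44 and 7.47 CPM on the right. Both eyes of animal 68 and the left eye of animal 61 were high, and the left eye of animal 65 was low. The 8 U2 members summed to 9.20 to 48.3 CPM, a 5.25-fold range, against 2.93-fold for U1a. The ratio of U2 to U1 was 0.128 to 0.237, with the highest values in the eyes of animal 68 (0.237 left, 0.226 right) and the left eye of animal 61 (0.216).

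**Figure D2:**
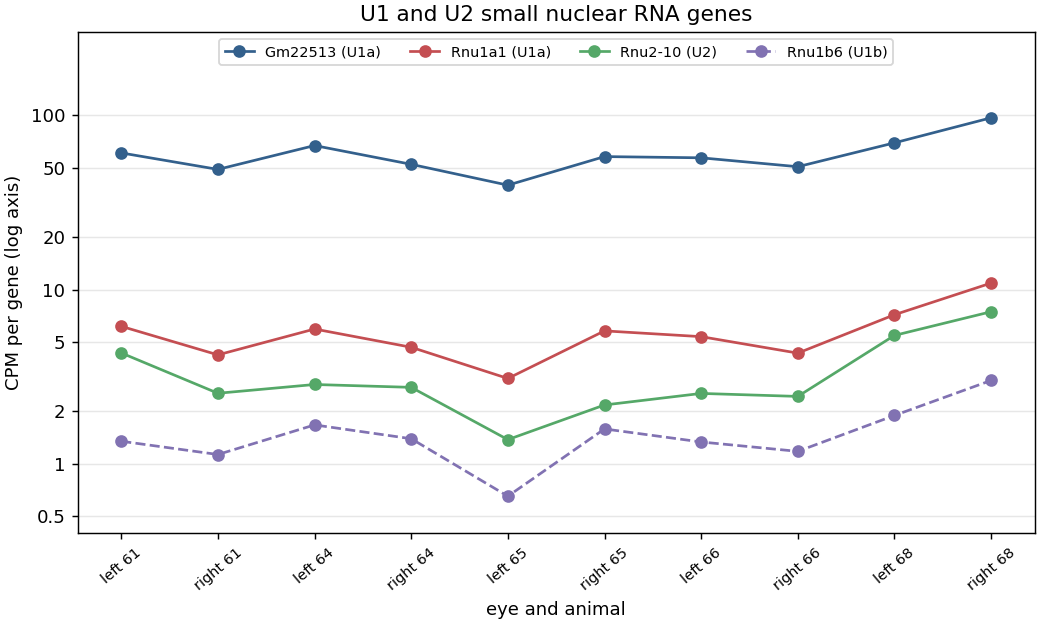
CPM of Gm22513, Rnu1a1, Rnu2-10 and Rnu1b6 in each library on a log axis, with lines only to guide the eye across libraries in no order. Gm22513 lies 8.88 to 12.9 times above Rnu1a1, which is 1 of 7 identical genes, throughout. The 4 genes share their lowest library (left eye of animal 65) and their highest (right eye of animal 68).

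The scaRNAs were the most abundant guide RNAs. Gm22009 (chr3:69085105-69085447, minus strand, in an intron of Kpna4) had 89.4, 82.7, 74.9, 80.5 and 83.6 CPM on the left and 77.1, 80.0, 79.8, 67.0 and 95.6 CPM on the right. Its SD of 0.14 on the log2 scale was next to that of Rn7sk. Scarna10, a guide for U5 RNA, had 80.0 ± 7.88 CPM on the left and 81.2 ± 18.8 CPM on the right. It overlaps exons of the noncoding gene Gm28967 on the same strand (68.3 CPM), so their reads cannot be told apart. Scarna13, in an intron of Snhg10, had 24.3 ± 2.55 and 27.0 ± 4.28 CPM, and Scarna2, which guides U2 methylation, had 19.1 ± 3.75 and 20.3 ± 5.69 CPM (SD, n = 5 each). Gm25395 and Scarna6, both in introns of Atg16l1, had means of 8.10 and 1.77 CPM.

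Among snoRNAs the pair Snora73a and Snora73b of the Snhg3 locus and Snord17 led the named genes. Scarna10 has biotype snoRNA but was grouped with the scaRNAs by its symbol. Apart from it, the highest snoRNA row was Gm22988 (mean 19.2 CPM). Gm22988 lies with all of its 144 bases in exons of Eif4a1 on the same strand, so their reads cannot be told apart. Snora73a had 14.5, 14.4, 9.54, 15.1 and 12.4 CPM on the left and 12, 11.1, 12.2, 9.81 and 16.5 CPM on the right. It has 159 of its 205 bases in exons of Snhg3 on the same strand (mean 2.12 CPM), so reads there cannot be told apart. Snora73b had 6.80 ± 1.36 and 6.23 ± 1.71 CPM, and Snord17 had 13.2 ± 1.4 and 12.9 ± 2.79 CPM. The 4 U3 genes Rnu3b1 to Rnu3b4, whose RNA acts in the first cleavages of pre-ribosomal RNA, have 1 sequence and equal values, with a mean of 1.33 CPM each.

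Many members lay within other genes. Of the 56 members 28 overlapped another listed gene on their strand and 0 on the other strand. For 27 of these the exons of the host could be read from GENCODE M21: 21 members lay wholly in introns and 6 touched host exons. Per kilobase, 18 of the 21 members in introns stood above their host. Snord17 stood at 7.02 times Snx5, Gm22009 at 46.5 times Kpna4 and Scarna13 at 108 times Snhg10. Gm25776 stood at 0.66 times Gtf2a1, Gm24119 at 0.41 times Slc25a3 and Gm26448 at 0.13 times Rpsa. The rule's minimum of 1 CPM on genes this short favours high ratios, so the ratios are a description only. In 20 of the 21 pairs whose host was tested, the member had the larger SD of log2 level (median 0.36, against 0.10 for the hosts), and in 16 of them the member had the lower CPM.

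Y and vault RNA stood near the threshold. Rny1 (chr6:47788069-47788180, minus strand) had 1.04, 1.44, 0.502, 1.30 and 1.38 CPM on the left and 0.719, 0.910, 1.21, 2.38 and 1.93 CPM on the right. Vaultrc5 had 0.581, 0.637, 0.334, 0.433 and 0.849 CPM on the left and 0.493, 0.372, 0.395, 6.18 and 0.944 CPM on the right. Its mean of 1.12 CPM passed the rule through the right eye of animal 66 alone. The other 9 libraries all lay under 1 CPM.

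The members moved between libraries largely together. The right eye of animal 68 had the highest value of 44 members (30 of the 42 distinct sets of values), while it was the highest library for 10.6% of all 15414 genes tested. It was the lowest library for 0 members and for 19.0% of all genes, the largest such share of the 10 libraries. The left eye of animal 65 had the lowest value of 31 members (19 distinct sets), against 16.6% of all genes. Summed U1a ran from 67.0 CPM in the left eye of animal 65 to 196 CPM in the right eye of animal 68, and summed U3 from 2.60 to 9.03 CPM in those libraries. The sums of 7SL and of snoRNAs changed less, by 1.47-fold and 1.76-fold. The class plot shows that the right eye of animal 68 was high in U1, U2, U3 and snoRNA, and close to other libraries in 7SL and 7SK.

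**Figure D3:**
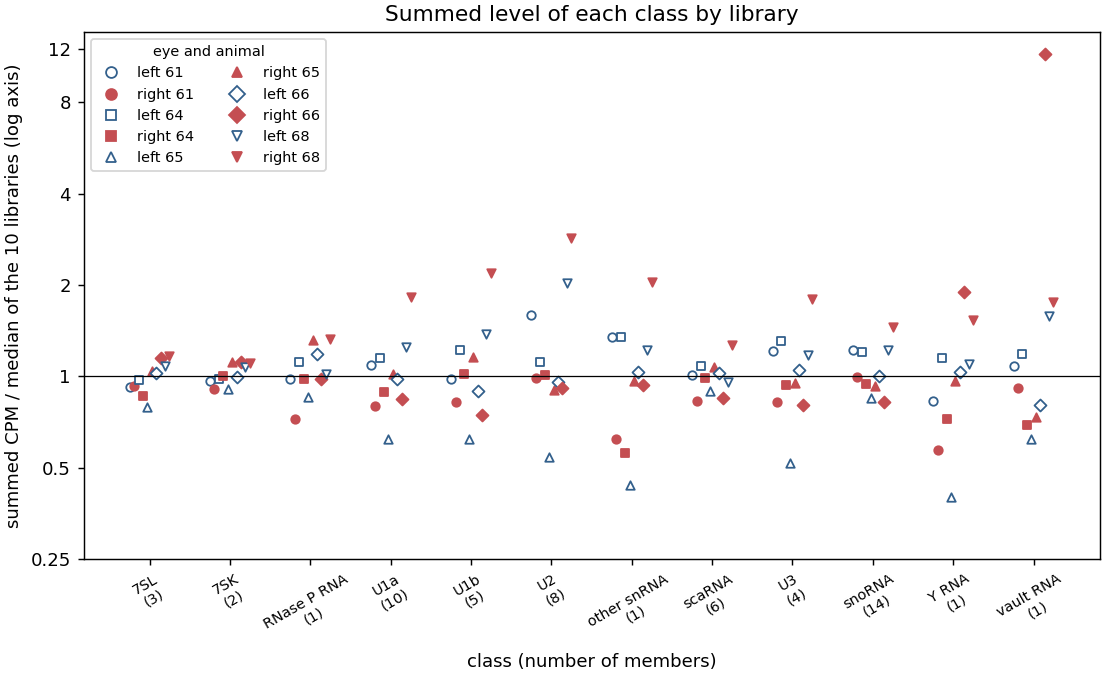
Summed CPM of each class divided by its median over the 10 libraries, on a log axis, with 1 symbol per library (open, left eye; filled, right eye). U2 spreads most among classes of several members, the right eye of animal 66 stands alone in vault RNA, and the left eye of animal 65 is low in nearly every class.

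Other cell types differed between the same libraries. The summed level of 6 rod markers was highest in the right eye of animal 68 (1744 CPM), with 139 to 832 CPM across the other 9 libraries. The 832 CPM was the left eye of animal 65, so rod markers were high both where the members were highest and where they were lowest. Of the other 10 marker lists, RPE, scleral fibroblasts, erythrocytes and Schwann cells were lowest in the left eye of animal 65, and pigment cells and choroidal endothelium in the right eye of animal 68. All 64 markers of the 11 lists were above 0 in at least 1 library. The defining genes of the labelled tissue were high: Rgr of the RPE at 1816 ± 82.9 CPM on the left and 2113 ± 355 CPM on the right, and Col1a2 of the sclera at 2683 ± 464 and 2748 ± 425 CPM. The listed genes also took their smallest share of a library, 42.7%, in the left eye of animal 65. The part of these shifts in the members' levels was not tested, and fewer cells of a type cannot be told apart from less RNA per cell.

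The spread between libraries was wide for most members. The median SD of log2 level was 0.47, against 0.16 over all genes tested. Low genes vary more, so each member was set beside the genes of its own level in 20 bins: 55 of 56 members were above the median of their bin, and 11 (8 distinct sets) above its 95th percentile. Gm25776 had the largest SD, 1.28, with a value of 0 in the right eye of animal 65, 0.0571 CPM in that of animal 66 and 3.35 CPM in that of animal 68. Zero reads allow up to 0.0359 CPM in that library, counting 3 reads as the limit. Vaultrc5 followed with 1.03, then Gm23262 with 0.83 and Gm24497 with 0.79.

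**Figure D4:**
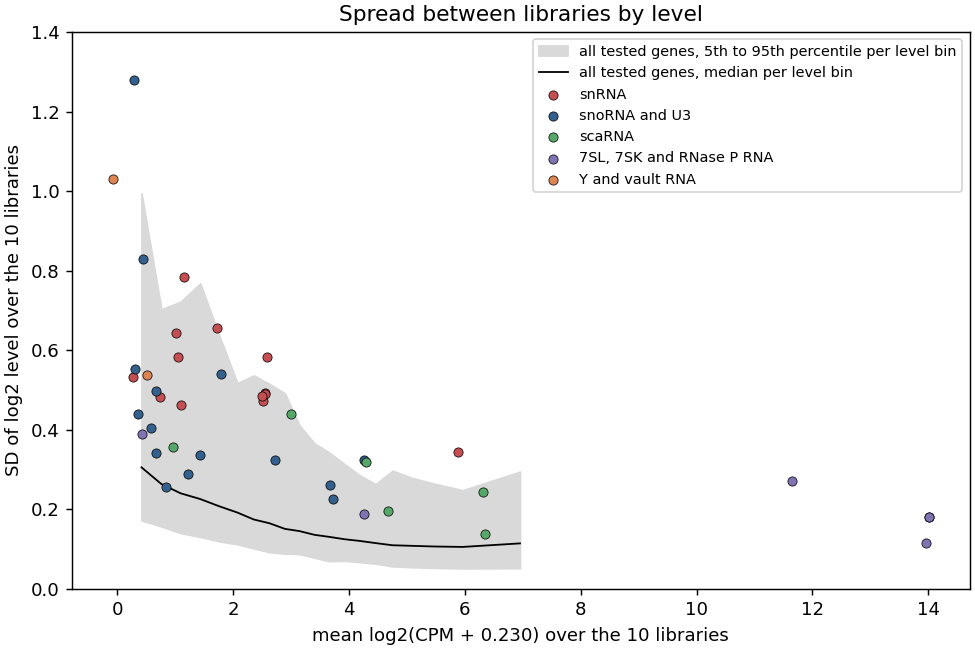
SD of log2(CPM + 0.230) over the 10 libraries against the mean on that scale, for each member with its own values (points) and for all 15414 tested genes in 20 level bins (black line, median; grey, 5th to 95th percentile). The points lie above the median of their bin with 1 exception, and Gm25776 (1.28) and Vaultrc5 (1.03) are highest. The line ends at 6.95, below the levels of Rn7s1, Rn7s2, Rn7sk and Rpph1.

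The design implies a comparison of fellow eyes, which asked whether these RNAs differed within animals from one side to the other. None of them passed. Limma with the animal as a block called 0 of the 56 members at an adjusted p of 0.05, as it called 0% of the 15414 genes (smallest adjusted p = 0.9998). At an unadjusted p under 0.05, 1 member was higher in right eyes (0.804% of all genes were) and 1 was lower (1.99% of all genes were). No member had left and right eyes that did not overlap, against 0.214% of all genes.

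The abundant RNAs had small differences with bounded intervals. On the log2(CPM + 0.230) scale the right minus left difference was 0.10 for Rn7s1 (95% interval -0.26 to 0.46), 0.09 for Rn7sk (-0.24 to 0.42) and 0.02 for Rpph1 (-0.38 to 0.42). It was 0.04 for Gm22513 (-0.32 to 0.39), 0.06 for Rnu1a1 (-0.45 to 0.57) and 0.04 for Rnu2-10 (-0.40 to 0.48). For 52 of the 56 members the interval lay within a 2-fold change in either direction, as for 95.8% of all genes. The median half-width was 0.49, against 0.21 for all genes. These intervals are unadjusted, so the half-width is not the detection limit of the adjusted test. Differences of this size and larger could go uncalled here, as for Gm25776 (-0.87, adjusted p = 0.9998 in limma).

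The members with the smallest unadjusted p were low in level. Gm24497, the U2 gene shown above, had 2.35, 1.84, 0.966, 0.699 and 2.92 CPM on the left and 1.61, 2.93, 2.37, 1.47 and 6.16 CPM on the right. It was higher in right eyes in 4 of 5 animals, a difference of 0.63 ± 0.24 (SE; unadjusted p = 0.033). Its near copy Gm23444, which lacks the C186A change, had a difference of -0.24 ± 0.21. These copies had equal values in 5 of the 10 libraries, so the differences rest on the other 5 and on how shared reads were counted, and they are not separate measurements. Gm23262, a snoRNA row in Eif4g2, had 2.65, 1.31, 0.787, 0.758 and 2.56 CPM on the left and 0.832, 0.714, 0.433, 0.564 and 2.92 CPM on the right. It was lower in right eyes in 4 of 5 animals, by -0.58 ± 0.23 (SE; unadjusted p = 0.0393). In both the groups overlapped, and limma's adjusted p was 0.9998 for each. Gm23262 has 150 of its 168 bases in exons of Eif4g2 (269 CPM), so its reads cannot be told apart from those of its host, and without animal 61 its difference was -0.37.

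Snora74a, a box H/ACA RNA of the Snhg4 locus, was the only member lower in the right eye of all 5 animals, against 2.67% of all genes. It had 5.24, 3.67, 1.95, 2.69 and 5.52 CPM on the left and 3.13, 2.62, 1.87, 2.51 and 5.19 CPM on the right, a difference of -0.28 ± 0.13 (SE; unadjusted p = 0.0627). Rn7s6 (0.18 ± 0.09) and Gm26397, a snoRNA row in Tomm20 (0.31 ± 0.15), were higher in right eyes in 4 of 5 animals. Gm24146 had 0.34 ± 0.21, Gm26448 -0.47 ± 0.20 and Gm25776 -0.87 ± 0.53. Each of these had an adjusted p of 0.9998 in limma. Without animal 61 the difference was -0.17 for Snora74a, 0.11 for Rn7s6 and -0.29 for Gm26448. Without animal 65 it was 0.20 for Gm24146 and -0.45 for Gm25776, without animal 66 -0.46 for Gm25776, and without animal 68 0.53 for Gm24146.

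By sign, 36 of the 56 members were higher in right eyes, against 46.0% of all genes, with a median difference of 0.04. Copies with equal values each count in that number: of the 42 distinct sets of values, 23 were higher and 19 lower. These sets are not all separate measurements, since copies with nearly equal values, such as Rn7s1 and Rn7s2, still count apart. Without animal 65, 14 of the 56 were higher, with a median of -0.12. Without animal 68, 14 of the 53 members that still passed the filter were higher, with a median of -0.07, so the majority rested on each of these animals.

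**Figure D5:**
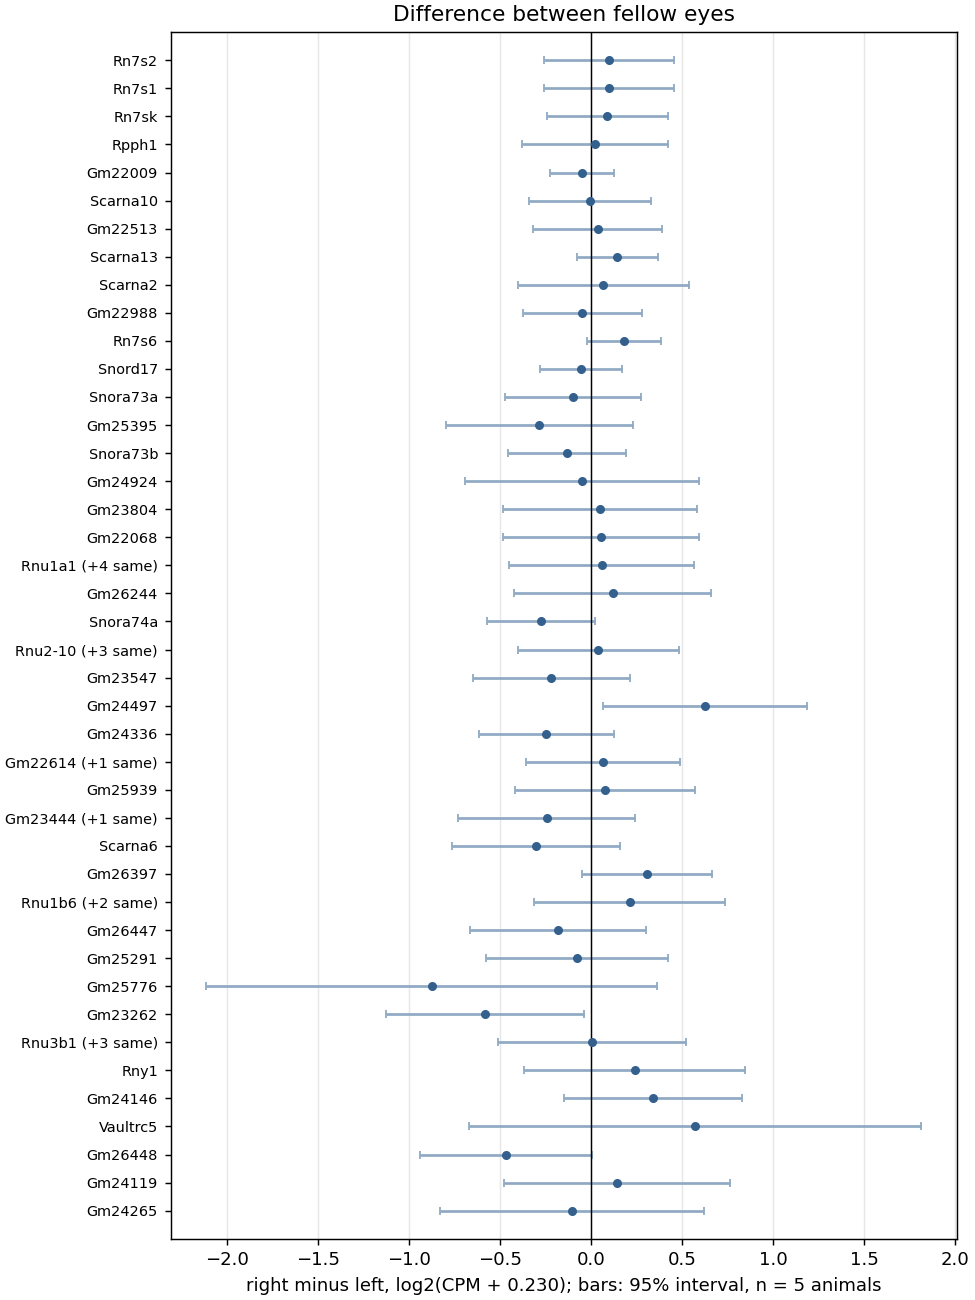
Right minus left difference of each member on the log2(CPM + 0.230) scale, with its 95% interval from limma over 5 animals; rows with equal values are drawn together. Gm24497 (0.63) and Gm23262 (-0.58) have intervals that leave 0 out before adjustment, and 0 members passed after it.

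The second comparison asked whether members differed between animals, pooling both eyes of each. Limma's F test called 0 of the 56 members, and 13 genes or 0.0843% of all genes tested (smallest adjusted p of a member = 0.336, for Snora74a). At an unadjusted p under 0.05 there were 12 members, or 21.4%, against 7.22% of all genes. These 12 rows hold 7 distinct sets of values, mostly U2 and U1b copies. Rnu2-10 and its 3 identical copies had an unadjusted p of 0.00549 and an adjusted p of 0.449. Without animal 68 the count was 2 of the 53 members then tested.

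Snora74a and U2 were high in both eyes of animal 68 and in the left eye of animal 61. Snora74a was at 5.52 and 5.19 CPM in animal 68, and at 1.95 and 1.87 CPM in animal 65. Gm23262 (unadjusted p = 0.0068) had 2.56 and 2.92 CPM in animal 68 and 0.787 and 0.433 CPM in animal 65. Neither passed adjustment over all genes.

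Among the proteins that bind and make these RNAs no gene passed between eyes. Of 109 tested genes in 10 lists, 46 were higher and 63 lower in right eyes, and limma called 0 of them between eyes and 0 between animals. Of the box C/D core, Snu13 had 14.6 ± 0.627 CPM on the left and 14.8 ± 1.16 CPM on the right, and Nop56 had 14.6 ± 1.24 and 14.3 ± 0.915 CPM (SD, n = 5 each). Of the box H/ACA core, Nop10 had 8.26 ± 0.954 and 8.23 ± 0.530 CPM, and the pseudouridine synthase Dkc1 had 6.45 ± 0.359 and 6.21 ± 0.285 CPM. In assembly, Nolc1, a Cajal body and nucleolar protein, had 11.6 ± 0.859 and 11.4 ± 1.70 CPM, and Tcof1 had 7.18 ± 0.749 and 6.995 ± 0.513 CPM.

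The partners of 7SK, 7SL and RNase P RNA had 0 calls as well. The P-TEFb cyclins Ccnt2 and Ccnt1 had 58.3 ± 2.88 and 36.1 ± 2.26 CPM on the left and 58.1 ± 1.82 and 36.8 ± 2.35 CPM on the right. Srp54a, the GTPase subunit of the signal recognition particle, had 61.9 ± 2.56 and 62.8 ± 2.58 CPM, and its receptor gene Srpr had 52.6 ± 2.69 and 51.7 ± 3.04 CPM. The RNase P proteins Pop4 and Rpp14 had 7.74 ± 0.497 and 7.37 ± 0.728 CPM on the left and 7.60 ± 0.765 and 7.05 ± 0.414 CPM on the right. The median SD of log2 level over the libraries was 0.10 for the signal recognition particle list, 0.11 for the 7SK list and 0.16 for the RNase P and MRP list, against 0.16 over all genes.

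Among splicing and RNA polymerase III genes 0 passed as well. Prpf8 and Snrnp200, large proteins of the spliceosome, had 193 ± 13.6 and 113 ± 5.83 CPM on the left and 198 ± 13.6 and 117 ± 5.15 CPM on the right. Ints1 and Ints4, of the Integrator complex that ends U1 and U2 transcripts, had 30.2 ± 1.56 and 25.99 ± 1.26 CPM on the left and 29.9 ± 2.68 and 26.3 ± 1.76 CPM on the right. Bdp1, of the polymerase III factor TFIIIB, and Ssb (La) had 37.4 ± 3.12 and 29.96 ± 1.42 CPM on the left and 37.5 ± 2.24 and 29.9 ± 2.80 CPM on the right. Ro60, the protein partner of Y RNA, had 57.9 ± 4.87 and 56.8 ± 5.87 CPM, and the major vault protein gene Mvp had 25.4 ± 1.56 and 24.7 ± 1.34 CPM. Summed over the 4 listed genes of the Ro and vault list, the level was 119 CPM in the right eye of animal 66, where Vaultrc5 was high, and 117 to 128 CPM over the 5 right eyes.

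The list of snoRNA host genes was led by the imprinted noncoding RNAs Rian (74.2 ± 8.16 and 74.4 ± 12.4 CPM) and Meg3 (62.8 ± 5.59 and 62.2 ± 18.6 CPM). By symbol, 0 snoRNAs of the imprinted clusters were listed, and small RNAs within Rian or Meg3 were not sought by position. Of the 18 tested host genes 4 were higher and 14 lower in right eyes, and 0 passed.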

How the data were processed

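The 10 libraries were sequenced after ribosomal RNA depletion, per the labels' protocols. The authors deposited CPM values per gene with an offset of 1e-04, which was subtracted. STAR, Partek and GRCm38 (mm10) are named in the submitters' processing notes. The sources used here do not give versions, annotation, the use of strand or the treatment of reads with several matches. Of low values, 88.6% to 89.8% per library were whole multiples of a step (tolerance 0.05), which implied 66.9 to 94.3 M reads. Among the members this held for 12.3% of values of genes with listed copies and 56.9% of the others. Intervals and floors cover counting error or the spread between animals only. Because CPM is relative, a class that takes a larger share lowers the others.

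Values were tested as log2(CPM + 0.230) for the 15414 genes at 1 CPM or more on average. The test was limma 3.58.1 (R 4.3.3) with a trend, eye side and animal as terms, which left 4 residual degrees of freedom. The p-values were adjusted by Benjamini-Hochberg, with a threshold of 0.05. The scale understates changes of low genes. The animal is a block because both eyes come from 1 animal. Deviations of fellow eyes over all genes correlated by -0.19 to 0.27, above 0.1 in 2 of 5 animals. Ends are the deposited stop minus 1, and 99.3% of starts and 99.2% of ends matched GENCODE M21. Sequences were found for all 56 members in its transcripts, and that of 7SL RNA is not reported here. Genes of a U1, U2, U3, 7SL or 7SK family were grouped by at least 85% identity.

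Members named were the highest with a Snord, Snora or Scarna symbol and of biotype snRNA or misc_RNA, the ribozyme, those with the smallest p between eyes or animals, the largest and smallest SD, and those at the threshold. Rnu1a1, Rnu1b6, Gm23444 and Rnu3b1 were named as members of a sequence family, and Gm25395 and Gm22988 for their level, after their values were seen. For each list the 2 highest genes are named. Members, lists and rules were chosen with earlier results of these data known. Alternatives covered the block, pseudocount, filter, scaling, moderation, weights and each animal left out. The fit was tested on versions of the deposited values with known folds placed into a random set of genes. Plots used matplotlib 3.10.9 (Python 3.11.15).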

Additional observations from a re-analysis of the deposited data

Results flagged for a closer look

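Within an eye group of 5 libraries, a single library stood far from the other 4 in 16 of 78 cases checked (named members and class sums, by Dixon's gap criterion). Chance alone gives about 1 in 20, and copies of a gene and the sums that hold them are not separate cases.

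The right eye of animal 68 stood above the other right eyes in 13 of the 16 cases. The values there were 96.9 CPM for Gm22513, 11.9 for Gm24924, 11.4 for both Gm23804 and Gm22068, 10.9 for Gm22317 and 7.47 for Gm23849. Gm23262 had 2.92 CPM and Gm24265 had 2.04 CPM. The class sums there were 196 CPM for U1a, 17.1 for U1b, 48.3 for U2, 9.03 for U3 and 94.3 for the other snoRNAs. Rod markers were also highest in that library (1744 CPM). They were next highest, at 832 CPM, in the left eye of animal 65, where most members were lowest. Their part was not tested.

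In 3 further cases another library stood apart. Vaultrc5 had 6.18 CPM in the right eye of animal 66, against at most 0.944 CPM in any other library. Gm25776 had 2.52 CPM in the left eye of animal 68, above the other left eyes. Snora73b had 4.41 CPM in the left eye of animal 65, below the other left eyes.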

How the results depend on the processing

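Under all 16 alternatives limma called 0 genes and 0 members between eyes, and under the 15 with an animal term 0 members between animals. With no replicate block it called 0 genes and 0 members between eyes. The count of genes called between animals was 7 with no trend, 20 with array weights and 5 to 10 with an animal left out, against 13. A mean of at least 5 CPM left 24 members, and 0.5 CPM gave 63.

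Of 524 recomputed differences of the 34 named members, 475 kept their sign and 49, in 20 members, did not. The reversed values ran from -0.16 to 0.17, and the cause was not tested. Quantile normalization gave -0.0066 for Rn7s1, -0.014 for Rn7s2, and -0.14 for Rpph1, and median-of-ratios scaling gave 0.0093 for Scarna10. Array weights gave -0.11 for Rpph1, -0.048 for Scarna2, -0.083 for Gm22513, -0.14 for Gm23804, -0.13 for Gm22068, -0.12 for Gm22317 and Gm22634, -0.15 for Rnu2-10 and its copies Gm23849, Gm23971 and Gm24950, and -0.13 for Gm24119. With array weights 14 of the 56 members were higher in right eyes.

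With an animal left out the ranges were -0.13 to 0.14 for Rpph1, -0.13 to 0.034 for Snord17, -0.22 to 0.028 for Snora73a, -0.13 to 0.10 for Scarna10, -0.11 to 0.21 for Scarna2, -0.091 to 0.13 for Gm22513, -0.31 to 0.17 for Gm24924, -0.16 to 0.19 for Gm23804, -0.15 to 0.20 for Gm22068, -0.14 to 0.20 for Gm22317 and Gm22634, -0.11 to 0.0058 for Gm22009, -0.10 to 0.23 for Rnu2-10, Gm23849, Gm23971 and Gm24950, and -0.34 to 0.12 for Gm24265. The summed level of all members moved by less than its spread between animals in each case.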
